A study of Mus musculus with 3 samples.

Results

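The Eif genes, which encode the translation initiation factors and the proteins that regulate them, were examined for Foxp3 peaks at their ends in mouse macrophages. Members were chosen by name alone: a protein-coding gene on chromosomes 1 to 19 or X of the mm10 RefSeq annotation whose symbol begins with Eif followed by a digit of the factor numbering. The rule found 55 genes among 21631 protein-coding genes on these chromosomes. A site means a peak that overlaps the stretch from 1000 bp before to 1000 bp after either annotated end of the gene. Because the rule reads only symbols, the set also holds genes whose products act beside initiation, such as Eif5a, whose protein acts in elongation, and Eif4a3, a helicase of the exon junction complex.

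Foxp3 binding was profiled by CUT&RUN, in which an antibody guides a nuclease to its target so that the DNA around it is cut free and sequenced. The cells were bone marrow-derived macrophages (BMDMs), grown in MCSF-conditioned medium and treated with 0.1% formaldehyde, and the libraries were 2 Foxp3 replicates made with antibody FJK-16s and 1 IgG isotype library. The series title speaks of stimulation with brain derived DAMPs, without any sample label marking the libraries that received it, and the labels give no strain, age or genotype of the mice. Peak lists of both Foxp3 replicates were used. IgG values were not used here, so the background of an unspecific antibody is not known for any gene below.

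Translation initiation begins when eIF2 carries the initiator tRNA to the small ribosomal subunit, helped by eIF1, eIF1A, eIF3 and eIF5, while eIF4E, eIF4G and eIF4A bring in the capped end of the mRNA. Cells set the rate mainly at 2 steps, by kinases that phosphorylate eIF2α and block its recharging by eIF2B, and by 4E-binding proteins that hold eIF4E away from eIF4G. In macrophages both steps are known to shape how much protein is made from cytokine mRNAs. Foxp3 itself is a forkhead family transcription factor, studied mostly in regulatory T cells.

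Promoter sequences of 7 members, chosen as examples of genes with and without peaks at the start, are given here as the 200 bases before the annotated transcription start on the transcribed strand, from RefSeq (GRCm38.p6, the mm10 assembly). Capitals mark CpG dinucleotides. Eif3j1 (chr2:122028380-122028579, plus strand, 21 CpG, 76.0% GC) and Eif3m (chr2:105017028-105017227, minus strand, 15 CpG, 63.5% GC) are shown because they had the 2 highest fold enrichments of all members in replicate 2. Eif4ebp2 (chr10:61452670-61452869, minus strand, 24 CpG, 70.0% GC) is shown as a regulator with strong peaks in replicate 1. Eif2ak3 (chr6:70844315-70844514, plus strand, 12 CpG, 52.5% GC) and Eif2ak2 (chr17:78882573-78882772, minus strand, 12 CpG, 64.0% GC) are kinase genes with and without a site in replicate 2. Eif3k (chr7:28981889-28982088, minus strand, 12 CpG, 46.5% GC) and Eif4a3l1 (chr6:136327339-136327538, plus strand, 2 CpG, 44.0% GC) had no replicate 2 peak at their start.
Eif3j1: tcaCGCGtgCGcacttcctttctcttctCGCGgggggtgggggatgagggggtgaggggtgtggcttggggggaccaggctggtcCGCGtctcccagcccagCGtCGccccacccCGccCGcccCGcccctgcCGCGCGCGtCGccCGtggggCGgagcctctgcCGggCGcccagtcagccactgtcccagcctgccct
Eif3m: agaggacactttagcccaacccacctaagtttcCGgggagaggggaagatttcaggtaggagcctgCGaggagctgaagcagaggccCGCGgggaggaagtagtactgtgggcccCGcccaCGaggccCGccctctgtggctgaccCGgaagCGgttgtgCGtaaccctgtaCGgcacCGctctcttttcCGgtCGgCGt
Eif4ebp2: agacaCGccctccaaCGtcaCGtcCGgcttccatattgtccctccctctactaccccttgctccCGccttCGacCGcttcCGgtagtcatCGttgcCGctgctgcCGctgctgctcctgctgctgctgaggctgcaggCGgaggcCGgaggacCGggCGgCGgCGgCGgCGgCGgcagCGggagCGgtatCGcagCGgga
Eif2ak3: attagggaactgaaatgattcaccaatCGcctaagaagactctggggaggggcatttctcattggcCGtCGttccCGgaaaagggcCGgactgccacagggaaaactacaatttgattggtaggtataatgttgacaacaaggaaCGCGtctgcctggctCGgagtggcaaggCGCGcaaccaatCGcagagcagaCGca
Eif3k: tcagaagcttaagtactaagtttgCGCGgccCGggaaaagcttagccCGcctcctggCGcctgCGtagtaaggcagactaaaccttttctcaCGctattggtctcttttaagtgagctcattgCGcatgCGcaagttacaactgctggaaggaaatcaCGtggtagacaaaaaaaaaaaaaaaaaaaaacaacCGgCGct
Eif2ak2: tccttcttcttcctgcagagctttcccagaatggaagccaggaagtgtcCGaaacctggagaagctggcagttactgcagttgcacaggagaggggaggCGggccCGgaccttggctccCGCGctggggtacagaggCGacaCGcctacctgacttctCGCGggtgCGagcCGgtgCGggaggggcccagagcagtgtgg
Eif4a3l1: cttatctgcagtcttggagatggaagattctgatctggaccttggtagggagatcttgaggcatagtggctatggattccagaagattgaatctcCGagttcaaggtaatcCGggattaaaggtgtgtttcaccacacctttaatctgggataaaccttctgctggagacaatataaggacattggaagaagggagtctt

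Peaks of both replicates were found at nearly all Eif genes. A site in both replicates was present at 49 of 55 Eif genes, or 89.1%, against 62.2% of all protein-coding genes. The 95% exact binomial interval of the 89.1%, 77.8 to 95.9%, takes each gene as an independent draw. This and the intervals below hold no spread between libraries and are no test against all genes. In replicate 1 all 55 Eif genes had a site (100%, interval from 93.5%), against 86.1% of all genes, and in replicate 2 there were 49 (89.1%), against 63.3% of all genes. Every Eif gene that lacked a site in both therefore lacked it in replicate 2. The peaks of the replicates overlapped each other at the same gene end in 48 Eif genes (87.3%, interval 75.5 to 94.7%), against 57.9% of all genes, and Eif3k was the gene with a site in both but no such overlap. With an overlap of at least 50% of both peaks required, 39 Eif genes (70.9%) remained, against 43.7% of all genes. The study has 1 group with values, so no test between conditions was possible and these shares are descriptions of the 2 libraries.

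The libraries were similar in depth, with 33294105 fragments in replicate 1 and 34898401 in replicate 2, but differed in the number of peaks, 556535 in replicate 1 and 95135 in replicate 2. The weakest peak listed had 10 fragments over its summit in replicate 1 and 13 in replicate 2. Whether each replicate had its own culture or animal is not stated in the labels, so their spread may be technical. Peak lists hold no transcript levels by which the cell type could be checked against its markers. Fold enrichment below is the authors' deposited value for each peak, and pileup is the number of fragments over its summit. Fold enrichment is pileup plus 1 divided by a background term, which is the background of the same library plus 1. For each gene and replicate, the peak of highest fold enrichment at either end is given.

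Among the 49 Eif genes with a site in both replicates, fold enrichment in replicate 1 ranged from 6.02 to 25.4 with a median of 13.7, against a median of 11.6 over the 13463 protein-coding genes with a site in both. In replicate 2 it ranged from 3.53 to 10.6 with a median of 6.05, against 5.40 over all such genes. Median pileup was 79 fragments in replicate 1 and 38 in replicate 2, against 72 and 34 fragments over all such genes. The median Eif gene stood at percentile 73.5 of all genes with a peak in replicate 1 and at percentile 65.1 in replicate 2, against 60.6 and 50.7 for the median of all genes with a site in both. Median peak length was 546 bp and 517 bp, against 519 bp and 489 bp over all such genes. Gene length, which sets how far apart the windows at the ends lie, had a median of 17815 bp for Eif genes and 17329 bp for all genes.

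**Figure D1:**
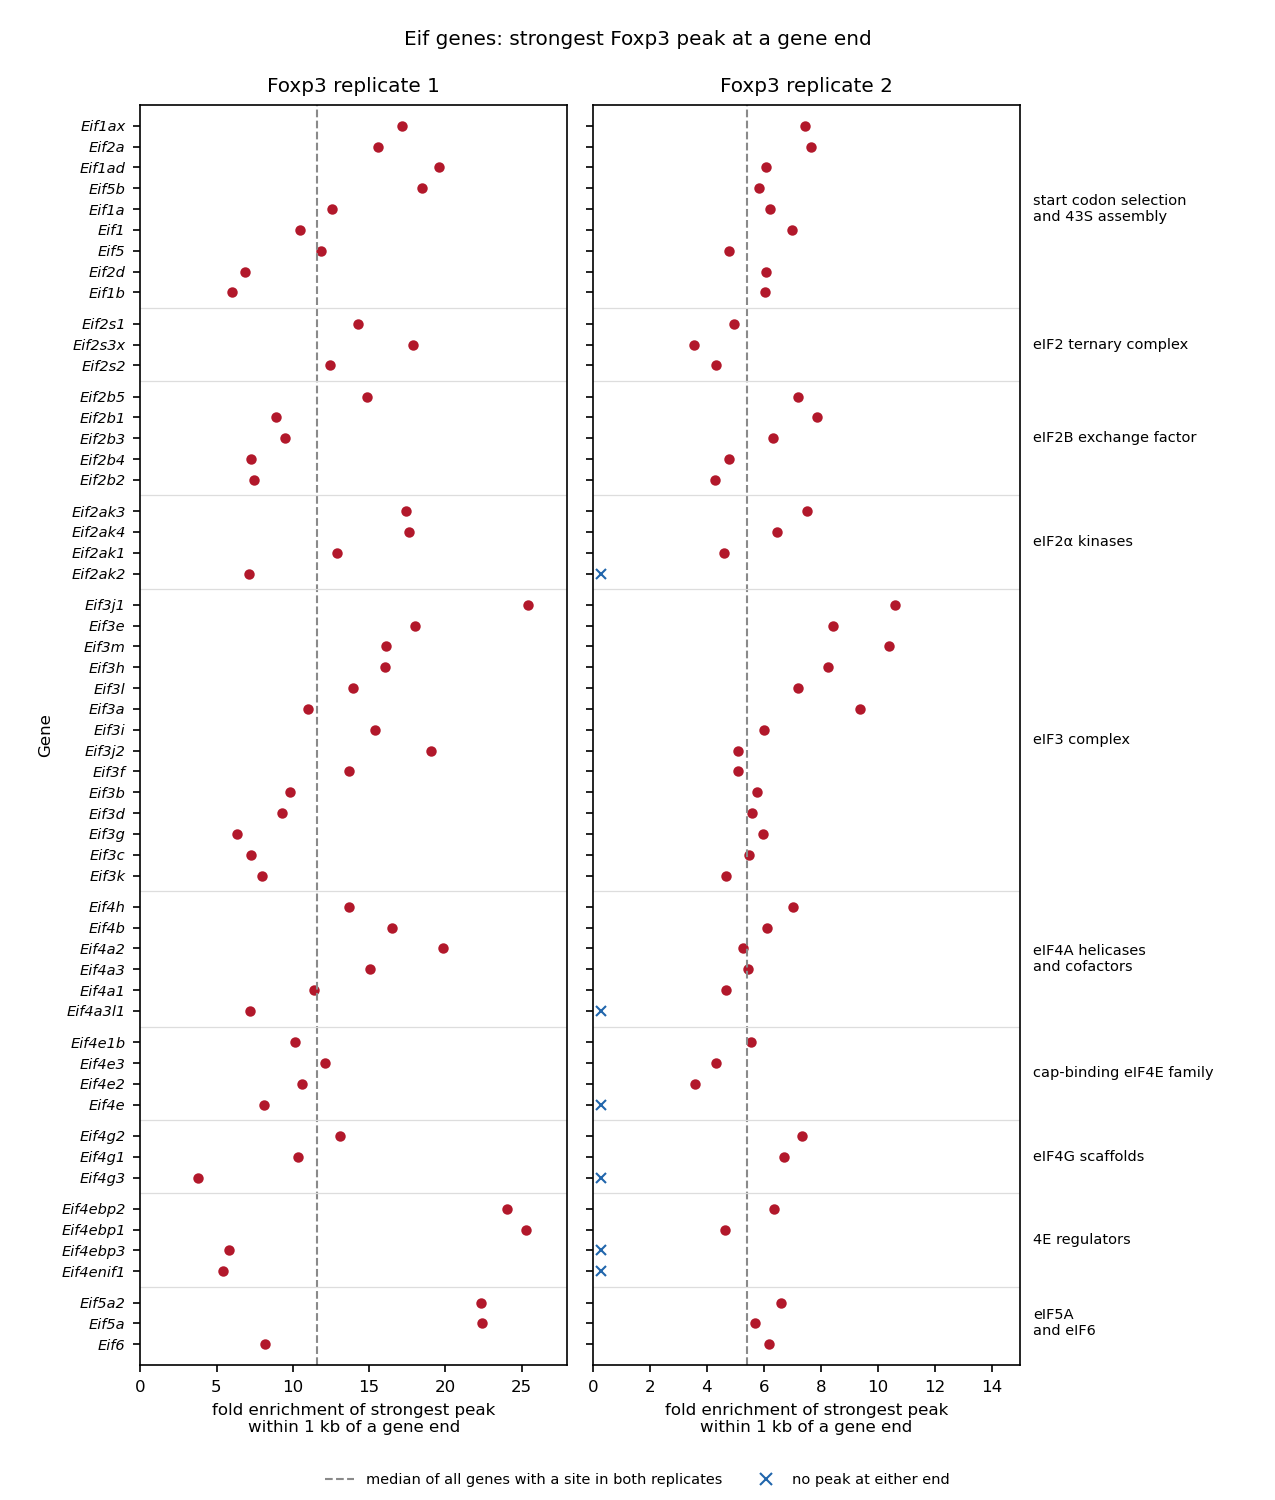
Fold enrichment of the strongest Foxp3 peak within 1 kb of an end of each of the 55 Eif genes, in replicate 1 (left) and replicate 2 (right), with genes grouped by role and 1 point per gene. Crosses mark the 6 genes with no replicate 2 peak, and dashed lines the medians of all genes with a site in both replicates, 11.6 and 5.40.

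The replicates ordered the Eif genes only loosely. Fold enrichment was higher in replicate 1 at 48 of 49 Eif genes (98.0%), against 96.8% of all genes, and the exception was Eif1b, with 6.02 in replicate 1 and 6.05 in replicate 2. The ratio of replicate 1 to replicate 2 ran from 0.994 at Eif1b to 5.46 at Eif4ebp1. Spearman's rho of fold enrichment between the replicates was 0.216 across the 49 Eif genes and 0.456 across all 13463 genes, and rho of pileup was 0.288 and 0.388. These are descriptions across genes of the same 2 libraries, and genes are not independent replicates. The strongest peaks of the replicates overlapped in 38 of the 49 Eif genes (77.6%), against 77.5% of all such genes, and their summits then lay a median of 221.5 bp apart (14 to 808 bp), against 127 bp.

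**Figure D2:**
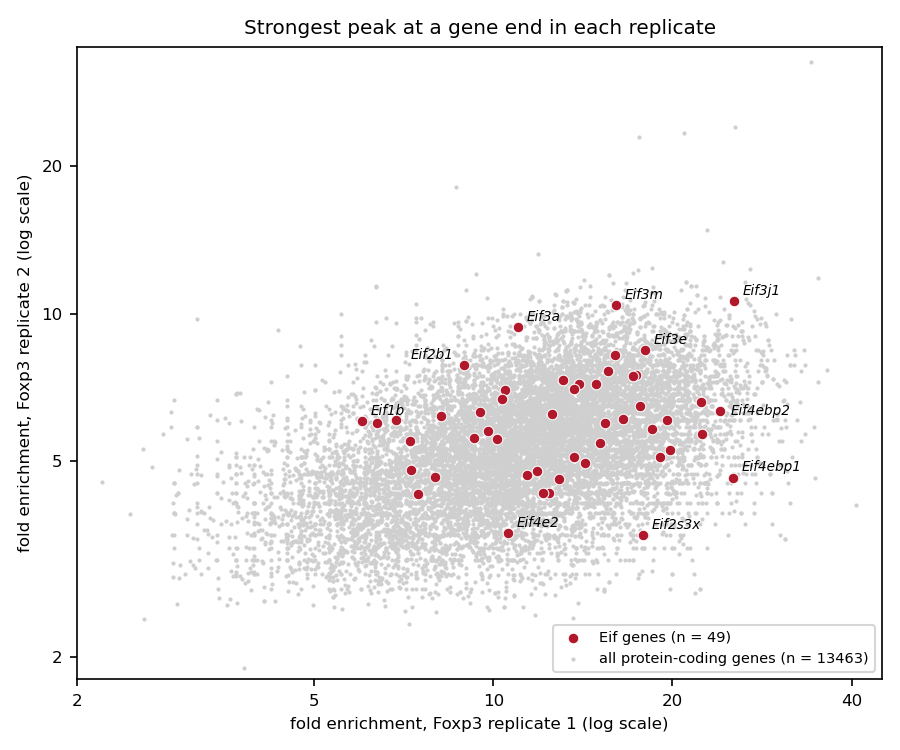
Fold enrichment of the strongest peak at a gene end in replicate 1 (horizontal) and replicate 2 (vertical), both on log scales, with 1 point per gene that has a site in both replicates. Eif genes (red, n = 49) spread over most of the cloud of all protein-coding genes (grey, n = 13463), with Eif3j1 high in both replicates and Eif4ebp1 high in replicate 1 alone.

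The eIF3 complex, the large scaffold that binds the small ribosomal subunit, was the largest role group. It held the members ranked highest by their mean percentile over the replicates, Eif3j1, Eif3e, Eif3m and Eif3h. It also held Eif3d, Eif3g, Eif3c and Eif3k, which ranked 36, 43, 45 and 46 of the 49 genes with a site in both. All 14 eIF3 genes had a site in both replicates, against 62.2% of all protein-coding genes and 89.1% of the Eif genes. Their median fold enrichments were 13.8 in replicate 1 and 5.99 in replicate 2, close to 13.7 and 6.05 over the 49 Eif genes. Eif3j1, whose product is a loosely bound subunit at the mRNA channel, ranked first of all Eif genes. Its peaks were chr2:122028509-122029237 in replicate 1, with a fold enrichment of 25.4 and 178 fragments, and chr2:122028255-122029199 in replicate 2, with 10.6 and 59 fragments. They overlapped over the promoter printed above and the start of the transcribed region, with summits 164 and 457 bp inside the 5′ end, and stood at percentiles 98.7 and 99.5 of all genes. Eif3e, a subunit with a PCI domain, had peaks at chr15:43282239-43282859 (18, 67 fragments) in replicate 1 and chr15:43282246-43282829 (8.44, 42 fragments) in replicate 2, nearly the same interval at the higher-coordinate end of the gene. Its replicate 1 summit lay just outside that end and its replicate 2 summit 361 bp inside.

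Eif3m, another PCI subunit, had peaks at chr2:105016612-105017118 (16.1, 85 fragments) in replicate 1 and chr2:105016671-105017052 (10.4, 52 fragments) in replicate 2. Both covered its start, with summits 72 and 169 bp inside. Eif3h, an MPN-domain subunit, had peaks at chr15:51865172-51865691 (16.0, 63 fragments) in replicate 1 and chr15:51865129-51865644 (8.25, 41 fragments) in replicate 2, with summits 191 and 100 bp inside the higher-coordinate end. Eif3a, the largest subunit, had similar values, 11 with 54 fragments in replicate 1 and 9.38 with 52 fragments in replicate 2. Eif3l had 13.9 and 7.21, and Eif3i had 15.4 and 6.0 at an end that lies beside Tmem234. Eif3j2, a second gene for the j subunit, had 19 and 5.10. Replicate 1 values were lower at Eif3b (9.79 and 5.76), Eif3d (9.29 and 5.59) and Eif3c (7.25 and 5.50), in replicates 1 and 2 in that order. At Eif3b and Eif3d these strongest peaks did not overlap each other, and a weaker replicate 1 peak overlapped the replicate 2 peak.

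At Eif3f and Eif3g the strongest replicate 1 peak lay at the 3′ end (13.7 at Eif3f and 6.37 at Eif3g), and the strongest replicate 2 peak at the 5′ end (5.10 at Eif3f and 5.98 at Eif3g). Eif3k, a peripheral subunit, was the only eIF3 gene at whose ends no peaks of the replicates overlapped each other. Its strongest peaks, 7.98 with 54 fragments in replicate 1 and 4.66 with 29 fragments in replicate 2, both lay near the 3′ end without overlapping, and no replicate 2 peak was listed at its start, although a replicate 1 peak of 7.40 was.

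The genes of start codon selection and 43S assembly, which place the initiator tRNA on the start codon, all had overlapping peaks (9 of 9). Such peaks were present at 57.9% of all genes and 87.3% of the Eif genes. Median fold enrichments of this group were 12.5 in replicate 1 and 6.09 in replicate 2. Eif1ax, the X-linked gene for eIF1A, had peaks at chrX:159372181-159372732 (17.2, 64 fragments) in replicate 1 and chrX:159372189-159372527 (7.46, 37 fragments) in replicate 2, with summits 46 and 179 bp inside its 5′ end. Eif2a, which encodes an alternative factor for delivering initiator tRNA, had peaks at chr3:58525218-58526006 (15.6, 81 fragments) in replicate 1 and chr3:58525178-58526142 (7.65, 49 fragments) in replicate 2. Both summits also lay within 1000 bp of an end of Serp1, so these peaks cannot be given to 1 of the 2 genes. Eif1ad, named for its eIF1A-like domain, had 19.6 with 171 fragments in replicate 1 and 6.08 with 49 fragments in replicate 2, outside its 5′ end and beside Banf1. Eif5b, the factor that joins the ribosomal subunits, had 18.5 and 5.82, with Txndc9 beside its replicate 1 summit, and Eif1a, the paralogue of Eif1ax, had 12.5 and 6.24 beside Tmed7.

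Eif1, which guards start codon fidelity, had fold enrichments of 10.5 in replicate 1 and 7.0 in replicate 2, above those of its paralogue Eif1b in both. Eif5, which stimulates GTP hydrolysis by eIF2, had 11.8 and 4.78. Eif2d, an alternative tRNA-delivery factor, had 6.88 with 25 fragments in replicate 1, the lowest pileup of the 49 genes in that replicate, and 6.09 with 30 fragments in replicate 2. Its peaks nevertheless overlapped, with summits 36 and 66 bp inside the start.

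The genes of the 3 subunits of eIF2 itself, the GTPase that carries the initiator tRNA, had a median of 14.3 in replicate 1 and 4.32 in replicate 2. The first is near the median of the 49 Eif genes, 13.7, and the second is below theirs, 6.05. Eif2s1, the gene for the α subunit that stress kinases phosphorylate, had peaks at chr12:78861411-78861781 (14.3, 77 fragments) in replicate 1 and chr12:78861299-78862307 (4.96, 26 fragments) in replicate 2, both beside Atp6v1d. Eif2s3x, the X-linked gene for the γ subunit, had peaks at chrX:94212358-94212976 (17.8, 80 fragments) in replicate 1 and chrX:94212325-94212569 (3.53, 17 fragments) in replicate 2. The summits of this gene lay 170 and 155 bp inside the 5′ end, close to each other, although its replicate 2 peak was the lowest of the 49 genes in fold enrichment and pileup. Eif2s2, for the β subunit, had 12.4 and 4.32.

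All 5 genes of eIF2B, which recharges eIF2 with GTP, had overlapping peaks, against 57.9% of all genes. Replicate 1 values of eIF2B were low for the set (median 8.93 in replicate 1 and 6.32 in replicate 2). Eif2b5, its catalytic ε subunit, had peaks at chr16:20498688-20499261 (14.9, 100 fragments) in replicate 1 and chr16:20498691-20499207 (7.19, 39 fragments) in replicate 2, which nearly coincided and had summits 107 and 31 bp inside the start. Eif2b1, of the regulatory part, had peaks at chr5:124578877-124579293 (8.93, 37 fragments) in replicate 1 and chr5:124578922-124579232 (7.85, 39 fragments) in replicate 2, with both summits within 1000 bp of an end of Gtf2h3. Eif2b3 had 9.51 and 6.32. Eif2b4 and Eif2b2 were among the 3 lowest of the 49 genes. Eif2b4 had chr5:31187568-31187810 (7.27, 39 fragments) at its 3′ end in replicate 1 and chr5:31192642-31193643 (4.79, 44 fragments) at its 5′ end beside Snx17 in replicate 2. Eif2b2 had chr12:85226031-85226349 (7.49, 38 fragments) at its 3′ end in replicate 1 and chr12:85219131-85219370 (4.30, 28 fragments) at its 5′ end in replicate 2. Both genes also had weaker replicate 1 peaks at the 5′ end that overlapped those of replicate 2.

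Of the 4 kinases that phosphorylate eIF2α, 3 had overlapping peaks, which 57.9% of all genes had. Eif2ak3, which encodes PERK, the kinase of endoplasmic reticulum stress, had peaks at chr6:70844401-70845208 (17.4, 122 fragments) in replicate 1 and chr6:70844437-70845197 (7.51, 41 fragments) in replicate 2, which reached back into the printed promoter. Eif2ak4, for GCN2, the kinase of amino acid shortage, had peaks at chr2:118388321-118388866 (17.6, 73 fragments) in replicate 1 and chr2:118388431-118388938 (6.48, 32 fragments) in replicate 2, with summits 42 and 270 bp inside the 5′ end. Eif2ak1, for HRI, the haem-regulated kinase, had 12.9 and 4.61. Eif2ak2, for PKR, the interferon-induced kinase that senses double-stranded RNA, had no replicate 2 peak at either end. In replicate 1 a peak of 6.33 with 26 fragments (chr17:78882499-78882658) covered its start, with the summit 7 bp inside, and the highest one, 7.14 with 26 fragments (chr17:78851445-78851580), lay near its 3′ end. The replicate 2 peaks of Eif2ak2 nearest its start were in the gene body, 9383 and 13449 bp from it, with fold enrichments of 4.32 and 3.93.

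The eIF4A helicases, which unwind mRNA leaders, and their cofactors had overlapping peaks at 5 of 6 genes, against 57.9% of all genes. Eif4h, a cofactor, had peaks at chr5:134638600-134639576 (13.7, 97 fragments) in replicate 1 and chr5:134639111-134639568 (7.04, 39 fragments) in replicate 2. Eif4b, the other cofactor, had peaks at chr15:102074233-102074583 (16.5, 112 fragments) in replicate 1 and chr15:102073597-102074525 (6.11, 35 fragments) in replicate 2, with summits 668 and 604 bp inside the 5′ end. A further replicate 1 peak, chr15:102073571-102074052 (15.7, 101 fragments), covered the Eif4b start, with its summit 47 bp outside. Eif4a2 had 19.8 and 5.28 from peaks that did not overlap each other, and each was overlapped by another peak of the other replicate (4.43 in replicate 2 and 10.3 in replicate 1). Eif4a3 had 15.1 and 5.44, and Eif4a1 had 11.4 and 4.68 with Senp3 beside the replicate 1 summit. Eif4a3l1, a gene named as like Eif4a3, had replicate 1 peaks alone, chr6:136328053-136328314 (7.03, 27 fragments) and chr6:136328912-136329091 (7.22, 28 fragments), both inside the gene and neither over its start.

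Cap-binding eIF4E family genes, whose products bring mRNA to the ribosome by its cap, had lower values. A site in both replicates was present at 3 of 4, against 62.2% of all genes. Over these 3 genes the medians were 10.6 in replicate 1 and 4.31 in replicate 2. Eif4e1b, an eIF4E relative, had peaks at chr13:54789028-54789509 (10.1, 89 fragments) in replicate 1 and chr13:54789169-54789626 (5.55, 52 fragments) in replicate 2. Both summits lay outside the gene and within 1000 bp of an end of Tspan17. Eif4e3 had peaks at chr6:99692104-99692885 (12.1, 138 fragments) in replicate 1 and chr6:99692211-99693517 (4.31, 35 fragments) in replicate 2, beside Gpr27. Eif4e2, which encodes the cap-binding repressor 4EHP, had peaks at chr1:87213743-87214436 (10.6, 103 fragments) in replicate 1 and chr1:87213764-87214588 (3.58, 27 fragments) in replicate 2, over its start, and was among the 3 lowest of the 49 genes.

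Eif4e, for the main cap-binding protein, and Eif4g3, for an eIF4G scaffold, lacked a replicate 2 peak at the ends of the gene but had one at a RefSeq start inside it. Eif4e had a replicate 1 peak of 8.14 with 57 fragments (chr3:138526548-138526793) in its 5′ window. A second RefSeq start of Eif4e lies 1077 bp inside the gene, and there replicate 1 had peaks of 12.0 with 83 fragments and 12.3 with 84 fragments, while replicate 2 had 1 peak of 7.87 with 56 fragments (chr3:138527296-138528307) that overlapped both. For Eif4g3 the only peak at a gene end was in replicate 1, 3.79 with 15 fragments (chr4:138208013-138208181) at the 3′ end. The RefSeq starts of Eif4g3 lie 1676 and 1677 bp inside the gene, where replicate 1 had 8.58 with 57 fragments (chr4:137993136-137994332) and replicate 2 had peaks of 5.64 with 42 fragments and 5.89 with 44 fragments overlapping it.

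The other eIF4G scaffolds had a site in both replicates, as 62.2% of all genes did. Eif4g2, whose product lacks the eIF4E-binding part, had broad peaks at chr7:111081921-111083383 (13.1, 89 fragments) in replicate 1 and chr7:111081998-111083436 (7.34, 54 fragments) in replicate 2, 1463 and 1439 bp long. Eif4g1, the main scaffold, had its strongest peaks at different ends, chr16:20693196-20693643 (10.3, 80 fragments) at the 3′ end beside Fam131a in replicate 1 and chr16:20672560-20673444 (6.71, 59 fragments) at the 5′ end in replicate 2. A replicate 1 peak at the Eif4g1 start had a fold enrichment of 10.0, near that of its 3′ peak.

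The regulators of eIF4E divided into 2 genes with high replicate 1 values and 2 without a replicate 2 site, which 63.3% of all genes had. Eif4ebp2 had peaks at chr10:61452095-61452932 (24.0, 217 fragments) in replicate 1 and chr10:61452268-61452874 (6.34, 42 fragments) in replicate 2, with summits 382 and 326 bp inside the 5′ end. Eif4ebp1, for the 4E-binding protein best known as an mTOR target, had the highest pileup of all members in replicate 1, 251 fragments and a fold enrichment of 25.3 at chr8:27260247-27260670. Its strongest replicate 2 peak, 4.63 with 33 fragments at chr8:27261138-27261454, did not overlap that one. Each was overlapped by another peak of the other replicate, of 4.06 in replicate 2 and 5.61 in replicate 1. Eif4ebp3 had a replicate 1 peak of 5.82 with 21 fragments (chr18:36664238-36664412), and its nearest replicate 2 peak lay 3994 bp beyond the higher-coordinate end, with 6.68 and 33 fragments. Eif4enif1, for the transporter 4E-T, had a replicate 1 peak of 5.43 with 77 fragments (chr11:3202362-3202543). Its local background term was 14.4, against a genome-wide term of 3.78 in that replicate. The replicate 2 peak nearest to an end of Eif4enif1 had its summit more than 3 kb outside the gene. It had 169 fragments but a fold enrichment of 2.47, over a local background term of 68.9 against a genome-wide term of 5.09. The part of this background in the missing replicate 2 site was not tested.

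Eif5a2 and Eif5a, which encode the hypusine-bearing factor that helps ribosomes through elongation, stood higher in replicate 1 than in replicate 2. Their percentiles among all genes with a peak were 97.0 and 97.1 in replicate 1, and 75.9 and 57.1 in replicate 2. Eif5a2 had peaks at chr3:28781146-28781818 (22.3, 141 fragments) in replicate 1 and chr3:28781126-28781888 (6.60, 38 fragments) in replicate 2, with summits 491 and 708 bp inside the 5′ end. Eif5a had peaks at chr11:69920684-69921457 (22.4, 181 fragments) in replicate 1 and chr11:69920441-69921303 (5.69, 44 fragments) in replicate 2, with summits 776 and 1044 bp inside the 5′ end of the gene, among its 6 RefSeq starts. Eif6, which keeps the large subunit from joining early, had 8.18 in replicate 1 and 6.18 in replicate 2 at opposite ends of the gene. Genes related by name such as Eif1a and Eif1ax, Eif3j1 and Eif3j2, or Eif4a3 and Eif4a3l1 could share fragments where their sequences are alike. Their sequences were not compared. How the authors' alignment placed such fragments is not stated in the labels or headers.

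Strand was known for 43 of the 55 Eif genes and 17274 of all genes, through the RefSeq promoter table, and there the sites lay at the 5′ end. Peaks of both replicates were present at the 5′ end of 37 of the 43 Eif genes (86.0%), against 56.6% of all genes, and at the 3′ end of 6 (14.0%), against 13.4% of all genes. By replicate, the 5′ end had a peak at 42 Eif genes (97.7%) in replicate 1 and 37 (86.0%) in replicate 2, against 79.2% and 58.1% of all genes. At the 3′ end the shares were 58.1% in replicate 1 and 16.3% in replicate 2, against 53.9% and 15.9% of all genes. Where every RefSeq start of a gene was used in place of its ends, 39 of 43 Eif genes (90.7%) had overlapping peaks of both replicates, against 58.6% of all genes, and the genes without were Eif2ak2, Eif3k, Eif4a3l1 and Eif4enif1. Windows of the same size placed 20 kb outside both ends had peaks of both replicates at 15 Eif genes (27.3%), against 22.0% of all genes.

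**Figure D3:**
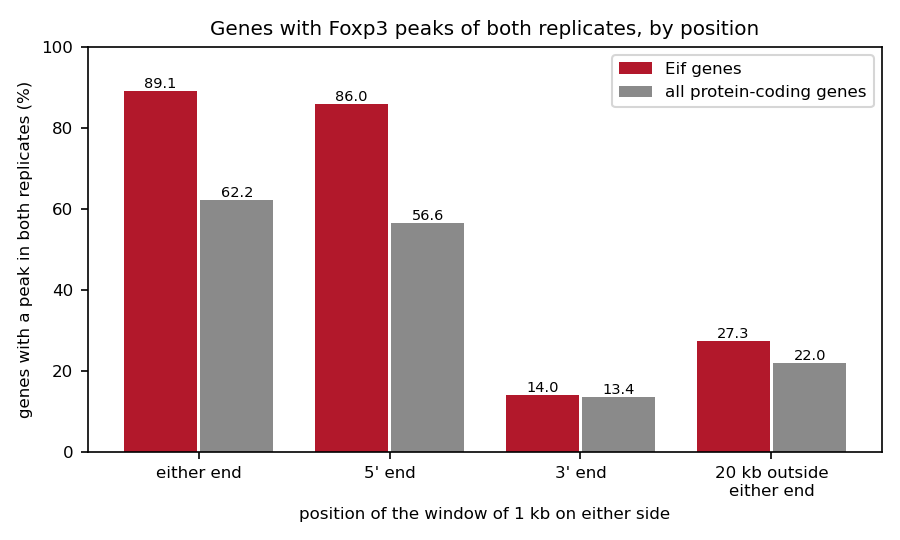
Percent of Eif genes (red) and of all protein-coding genes (grey) with Foxp3 peaks of both replicates in windows reaching 1 kb to either side of a position. The sets differ at either end (89.1 and 62.2%) and at the 5′ end (86.0 and 56.6%), and lie close together at the 3′ end (14.0 and 13.4%) and 20 kb outside the gene (27.3 and 22.0%).

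Summits gathered just inside the start. In the first 200 bp inside the 5′ end there were 46.5 summits per 100 Eif genes in replicate 1 and 32.6 in replicate 2, against 24.1 and 17.3 per 100 of all genes. In the 200 bp just outside the start, values were 14.0 in replicate 1 and 6.98 in replicate 2, against 13.2 and 8.27. The first base of the gene itself was covered by peaks of both replicates at 25 of 43 Eif genes (58.1%), against 27.5% of all genes. The first bin in replicate 1 holds 20 summits in Eif genes, against 6 in the bin just outside the start and 5 in the next bin inside. Deeper inside the genes, more than 1 kb from either end, peaks were about as dense as elsewhere, with 28.2 per 100 kb in replicate 1 and 4.05 in replicate 2 for Eif genes, against 25.4 and 4.0 for all genes.

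**Figure D4:**
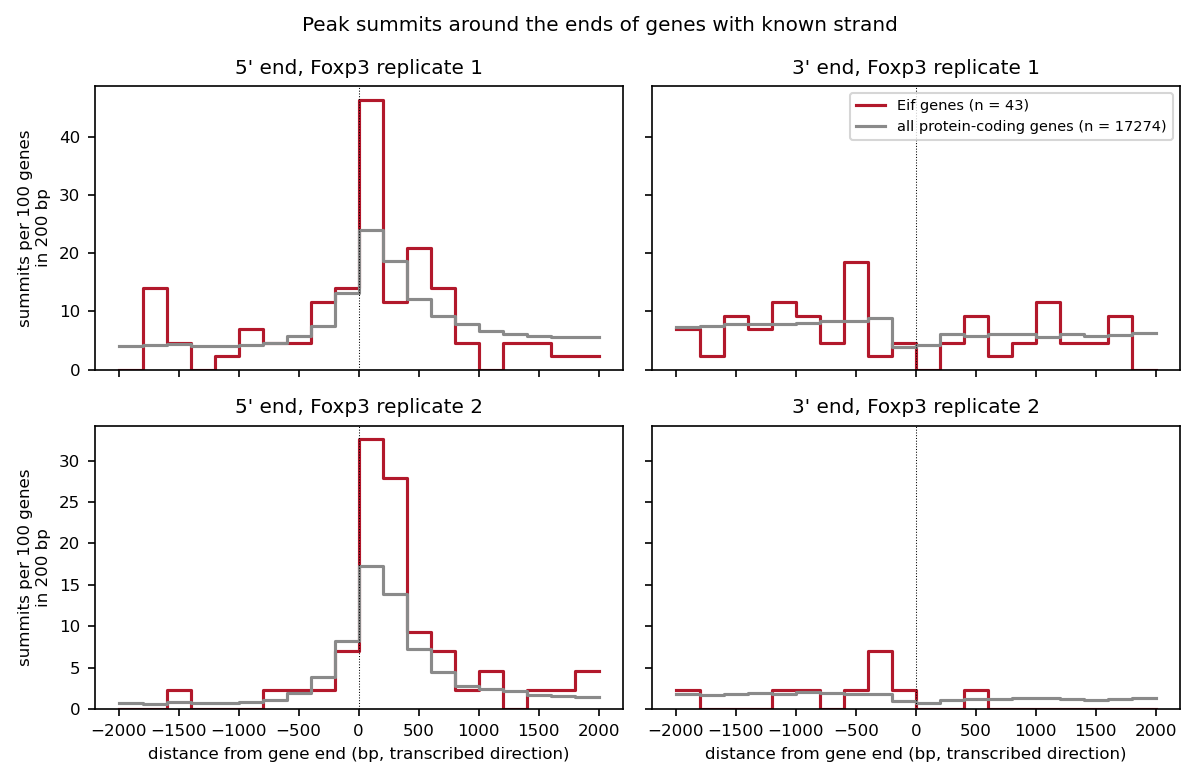
Peak summits per 100 genes in bins of 200 bp around the 5′ end (left) and 3′ end (right) of genes with known strand, for Foxp3 replicate 1 (top) and replicate 2 (bottom), with distance counted along the direction of transcription. Eif genes (red, n = 43) reach 46.5 in replicate 1 and 32.6 in replicate 2 in the first bin inside the 5′ end, against 24.1 and 17.3 for all genes (grey, n = 17274).

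Other genes had an end close to some of these peaks. The summit of the strongest peak lay within 1000 bp of an end of another protein-coding gene at 12 of 49 Eif genes (24.5%) in replicate 1 and 9 (18.4%) in replicate 2, against 20.6% and 21.0% of all such genes. The local background exceeded the genome-wide one under 45 of the 49 strongest replicate 1 peaks (91.8%) and 37 of those in replicate 2 (75.5%), against 87.7% and 75.8%.

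Promoters of Eif genes were rich in G, C and CpG. Over the 300 bases from 250 before to 50 after the start, median GC was 61.3% in Eif genes (n = 43), against 56.3% in all genes (n = 17274), and the median ratio of observed to expected CpG was 0.854, against 0.586. A CpG-rich promoter, here GC of at least 55% with a CpG ratio of at least 0.6, was present at 31 of 43 Eif genes (72.1%), against 41.8% of all genes. Across all genes composition went with sites: such a promoter was present at 60.6% of the genes that had a site in both replicates and at 11.1% of those that did not. Within CpG-rich promoters, a division chosen after the data were seen, 28 of 31 Eif genes (90.3%) had a site in both replicates, against 89.9% of all genes of that class. Within the other promoters it was 10 of 12 Eif genes (83.3%), against 42.0% of all genes of that class, and at the 5′ end alone 9 of 12 (75%), against 34.6%. Several of these Eif genes lay close to the class limits, among them Eif2ak3 (54.7% GC), Eif3c (54.0%), Eif2s2 (53.3%), Eif2s1 (53.0%) and, with a CpG ratio of 0.569, Eif2ak1. Eif5a was classed by its outermost start, while its 5 other RefSeq starts met both limits, and the replicate 2 site of Eif3k was at its 3′ end. The class was read at the RefSeq start nearest the 5′ end, but sites were counted at the annotated gene ends. The CpG-rich Eif4g3 thus counts as without, although peaks of both replicates lay at its RefSeq starts inside the gene. In CpG-rich promoters the Eif genes had median fold enrichments of 13.8 in replicate 1 and 6.10 in replicate 2, against 12.2 and 5.74 for all genes. The Eif genes in the other class with a site in both were Eif2s1, Eif2s2, Eif2b5, Eif2ak1, Eif2ak3, Eif3b, Eif3c, Eif3f, Eif3k and Eif5a, and those without were Eif4e and Eif4a3l1. The part of promoter composition in the share of Eif genes with a site was not tested.

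**Figure D5:**
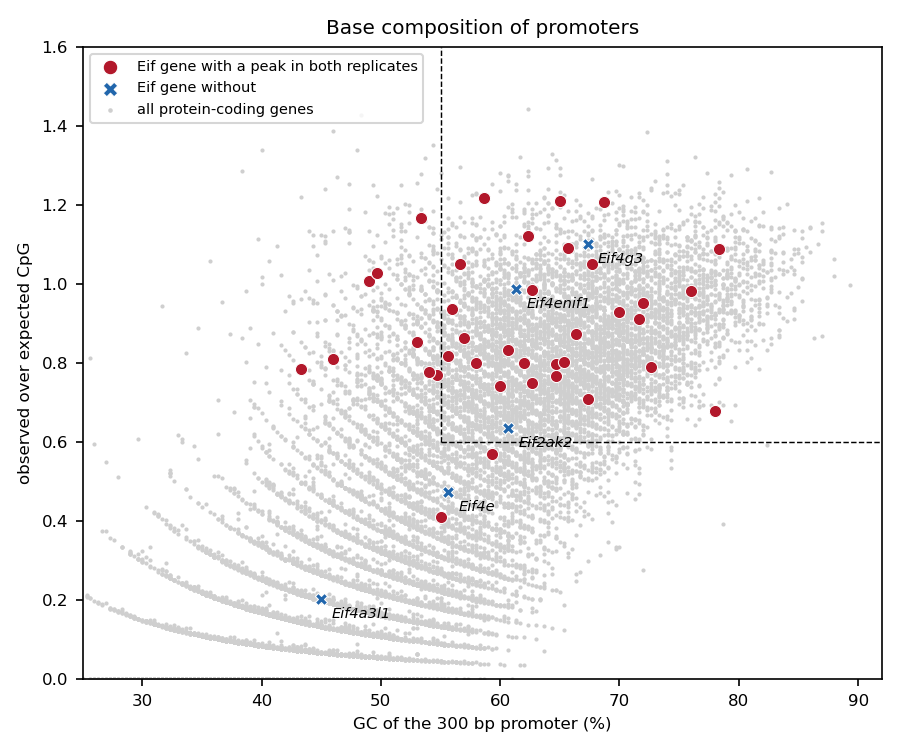
GC percent (horizontal) and observed over expected CpG (vertical) of the 300 bp promoter of each gene with a promoter sequence; dashed lines mark the CpG-rich class, GC of at least 55% and ratio of at least 0.6. Eif genes with a site in both replicates (red) fall mostly in that class, the 5 without (crosses) are named, and 17 of the 17274 grey points for all genes lie outside the drawn range.

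Short sequence words of known factors were counted in the same promoters on either strand, allowing words to overlap each other. The forkhead word TGTTTAC was in 0 of 43 Eif promoters, against 2.96% of all promoters, 2.18% of those of genes with a site in both replicates and 4.24% of those without, and 1.8% of CpG-rich ones. The ETS word CCGGAAGT was in 7 Eif promoters (16.3%), against 5.34% of all promoters and 8.62% of CpG-rich ones, and the E-box CACGTG was in 8 (18.6%), against 8.01% and 11.8%. The SP word GGGCGG was in 31 (72.1%), among them Eif3j1, Eif3m and Eif4ebp2, against 46.9% of all promoters and 79.9% of CpG-rich ones. The other words were the PU.1 word GAGGAAGT in 2 Eif promoters (4.65%, against 3.17% of all), the AP-1 word TGANTCA in 5 (11.6%, against 7.09%) and the CRE core TGACGT in 6 (14.0%, against 8.81%). In CpG-rich promoters these 3 words were present in 2.31%, 2.90% and 13.2%. The NRF1 word GCGCATGCG and the YY1 word AAGATGGC were in 3 each (6.98%, against 2.43% and 3.23% of all promoters and 4.21% and 4.99% of CpG-rich ones). The CCAAT word ATTGG was in 14 (32.6%, against 39.6% of all and 36.4% of CpG-rich promoters). A word in the reference is a description of these letters and not a binding site. The promoters searched end 50 bases after the start. For the 49 Eif genes with a site in both replicates, median summits of the strongest peaks lay inside the nearer gene end. They were 73 bp inside in replicate 1 and 179 bp inside in replicate 2. At many of these genes the sequence at the summit was thus not searched, and its words were not tested. With the word in 2.96% of all promoters, 43 promoters are too few for 0 to show a lack of forkhead words.

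Other genes of translation outside the symbol rule were placed beside the Eif genes. Like the role groups, they were chosen with earlier results of these data known. The list holds 39 genes and covers elongation and release factors, mTOR signalling and stress response genes. A site in both replicates was present at 33 of them (84.6%), against 62.2% of all genes, with median fold enrichments of 11.9 in replicate 1 and 5.30 in replicate 2, against 11.6 and 5.40 over all genes with a site in both. The 5 highest were the release factor genes Etf1 (22.1 in replicate 1 and 9.45 in replicate 2) and Gspt1 (15.7 and 7.46), the ribosome recycling gene Abce1 (23.0 and 7.18), the S6 kinase gene Rps6kb1 (17.4 and 7.66) and the eIF2α phosphatase subunit gene Ppp1r15b (18.2 and 5.76). The Etf1 values came from peaks at opposite ends of that gene. Without a site in both were Paip2, with a single-replicate value of 35.9, Mtif2 (13.0), Mcts2 (7.67), Larp1 (7.31) and Impact (3.40), all from replicate 1, and Pdcd4 (3.38) from replicate 2. Ddit3, a target gene of the eIF2α kinases, had low peaks of 4.23 in replicate 1 and 2.96 in replicate 2.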

How the data were processed

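The series has 2 Foxp3 CUT&RUN libraries and 1 IgG isotype library, and the peak lists of the Foxp3 libraries were used. The submitters' processing notes name CASAVA 1.4 and the build mm10. No aligner is named in the sources used here. As the file headers record, the authors called peaks with MACS 2.1.1.20160309 on each library separately, from paired fragments, with a q-value cutoff of 0.01, no control library and all duplicate fragments kept. The signal deposited for each peak is its pileup, the fragments stacked at the summit, unscaled. As deposited, fold enrichment is a ratio, pileup plus 1 divided by background plus 1. The background is the one that the same library gives over the genome or over 10000 bp nearby. The deposited −log10 p-value and −log10 q-value of each peak were used only for a stricter threshold. With no control and duplicates kept, sites open to any antibody or heavily amplified fragments can be listed.

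From these files, peaks were assigned to gene ends of the RefSeq GRCm38.p6 table when they overlapped a window of 1000 bp to either side. That table gives no strand, so the 5′ and 3′ ends were told apart only for genes matched in the RefSeq promoter table, 43 of 55 Eif genes, and a promoter's start there can differ from the gene's end. Counts over the whole set are given beside the same share of all protein-coding genes, and no test was made, since 1 group has values. Shares carry exact Clopper-Pearson intervals of 95%, which take genes as independent draws and hold no spread between libraries. Genes were named by a rule: every member, with peak positions for the 10 highest by mean percentile of fold enrichment, the first 2 of each role, the 3 lowest and those without a site in both replicates, and, of the other translation genes, the 5 highest and those without. Members were picked by symbol alone, but this rule, the roles and the gene lists were set with earlier results of these data known. Counting was tested on simulated data with known sites. Alternatives were other windows, stricter peaks, equal numbers of peaks, each replicate alone and other definitions of the start. Python 3.11.15, pandas 2.3.3, NumPy 2.4.6, SciPy 1.17.1 and matplotlib 3.10.9 were used.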

Additional observations from a re-analysis of the deposited data

How the results depend on the processing

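The count of Eif genes with a site in both replicates (49 of 55) was 47 with windows of 500 bp (85.5%, against 55.3% of all genes), where Eif4e1b and Eif5a were lost, and 53 with windows of 5000 bp (96.4%, against 78.9%), where Eif4e, Eif4ebp3, Eif4enif1 and Eif4g3 were gained. It was 47 with summits required in the window (85.5%, against 59.6%), 48 with −log10 q of at least 5 (87.3%, against 57.6%) and 37 with a fold enrichment of at least 5 (67.3%, against 36.6%). With replicate 1 reduced to as many peaks as replicate 2 it was 43 by fold enrichment (78.2%, against 49.3%) and 46 by −log10 q (83.6%, against 54.1%). Windows 20 kb outside the ends gave 15 (27.3%, against 22.0%), and the division by promoter, chosen after seeing the data, gave 28 CpG-rich and 10 other genes, because fewer genes enter each class. Leaving out 1 replicate at a time gave counts of 49 to 55 (89.1 to 100%, against 63.3 to 86.1% of all genes) and median fold enrichments of 6.05 to 13.7. The count with overlapping peaks (48) ranged from 37 with a fold enrichment of at least 5 (67.3%, against 35.5%) to 52 with windows of 5000 bp (94.5%, against 71.5%). No paired analysis was possible because only 1 group has peak lists and no second group shares its replicate numbers. Peaks under 10 fragments in replicate 1 and 13 in replicate 2 were not listed, so a missing site is not an absent one.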
